A study of Mus musculus with 20 samples.

Results

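The sensory epithelium of the mouse cochlea was compared between embryonic day 16 (E16) and the day of birth (P0). The comparison used the 3 libraries labelled cochlea E16 and the 3 labelled cochlea P0, 6 of the 20 libraries of the series, chosen by their labels. The animals were WT C57BL/6JOlaHsd mice of both sexes with no treatment, and each RNA preparation pooled the inner ears of several mice. The 3 cochlea libraries at postnatal day 16 (P16) entered the fit and are given as later levels, without a test, and the libraries of the superior olivary complex were not used here. The labels number the replicates but do not say which animals gave them, so that p-values measure only the spread between these samples. Total counts of the 6 libraries ranged from 23392111 to 31181323, and a gene with no read could still have been present at 0.0962 to 0.128 CPM (counts per 1000000 counts), the level of 3 counts, for counting error only.

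The sensory epithelium holds mechanosensory hair cells, each topped by a bundle of stereocilia, and the supporting cells that surround them. In the mouse cochlea the precursors leave the cell cycle before birth in a wave from apex to base, while differentiation runs mainly from base to apex. Hair bundles grow, the tectorial membrane is secreted over the epithelium, and the lateral wall starts to build the potassium transport that later drives hearing. The comparison asked which genes changed over this prenatal step.

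The label was checked against defining markers of both cell types. Pou4f3, a transcription factor of differentiating hair cells, was at 15.5, 17.9 and 15.9 CPM at E16 and 18.7, 18.5 and 23.7 CPM at P0. Sox2, a transcription factor of prosensory and supporting cells, was at 48.8, 47.4 and 47.6 CPM at E16 and 47.6, 48.4 and 57.99 CPM at P0. Both were present in all 6 libraries. The groups overlapped for Sox2, and for Pou4f3 the P0 libraries lay just above those at E16. Genes of surrounding tissue were present as well, such as the cartilage and otic collagen Col2a1 at 4324 ± 452 CPM at E16 and 10132 ± 1487 CPM at P0 (SD, n = 3 at each age). In bulk tissue, fewer cells of a type and less RNA per cell cannot be told apart.

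Between E16 and P0, 998 of 21829 genes were higher at P0 (4.57%) and 743 were lower (3.4%). A gene was called when the adjusted p of edgeR's quasi-likelihood test was under 0.01, the fold change was over 2.5, and all P0 libraries lay on 1 side of all E16 libraries. Over all genes tested, log2 fold changes had a median of 0.03. These shares are the background for every list count that follows. Among the libraries, P16 replicate 3 stood apart from the other P16 libraries in its cell cycle and blood genes. P16 replicate 3 enters the estimate of spread and also moved the difference between P0 and E16 slightly. When it was left out, the changes of the genes tested centred on -0.005 in place of 0.03 (log2, median). The counts that moved most with P16 replicate 3 were those of the cell cycle and blood lists. These are also given from the 6 libraries alone.

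**Figure D1:**
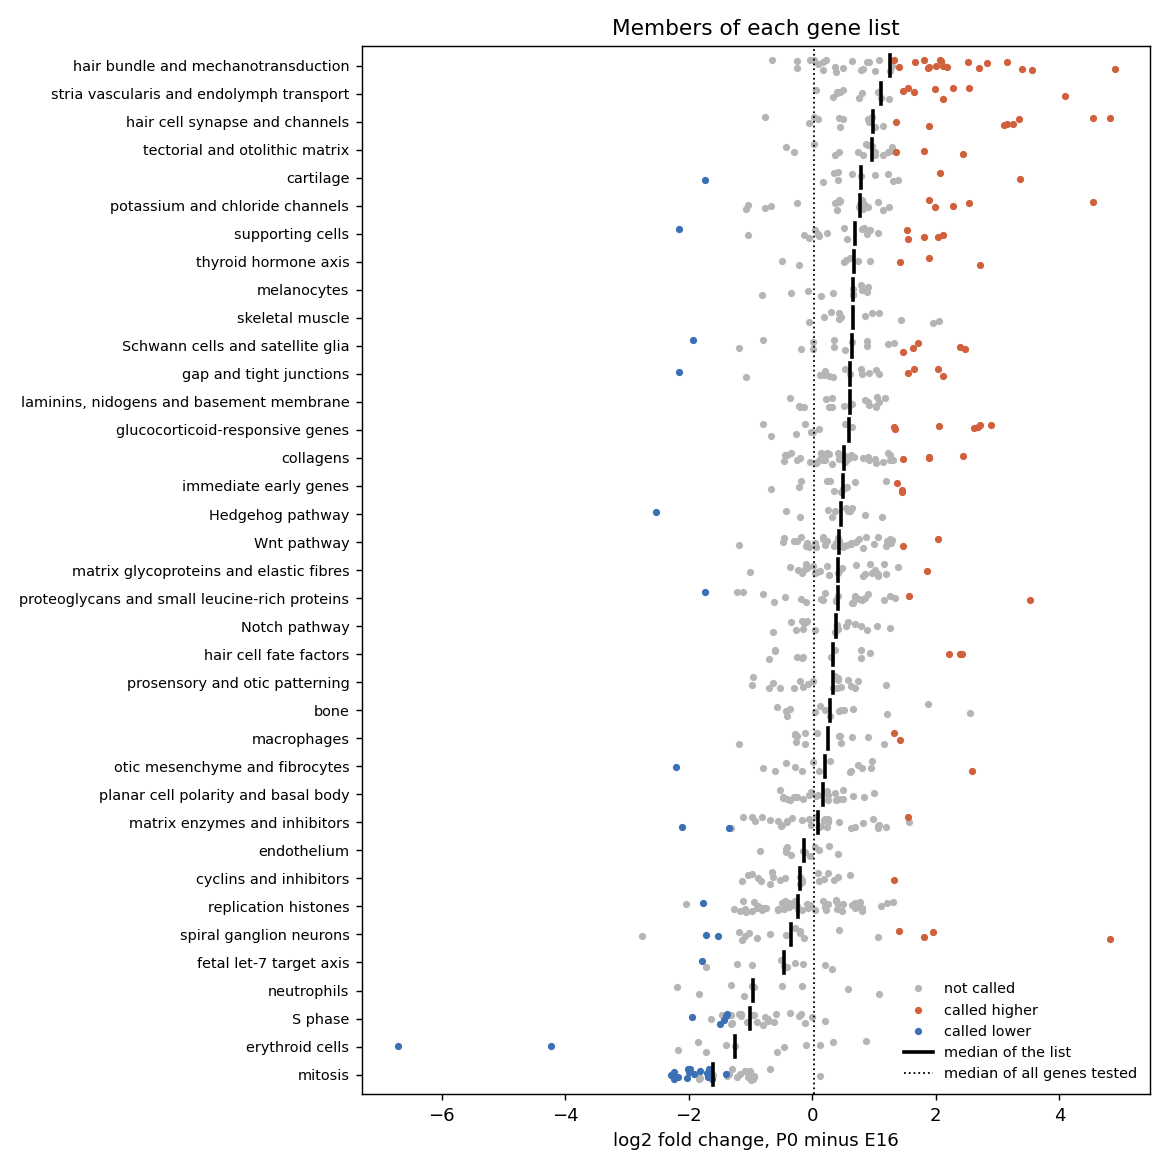
Log2 fold change (P0 minus E16) of every tested member of each gene list, with a point per gene, a bar at the median of the list and a dotted line at the median of all genes tested (0.03). The hair bundle list has the highest median (1.27) and the mitosis list the lowest (-1.61).

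Genes that build the hair bundle and its transduction apparatus were higher at P0. Of the 39 members tested, 18 were called higher (46.2%, against 4.57% of all genes) and none lower, with a median log2 fold change of 1.27. Strc, which encodes stereocilin, the protein of the links between stereocilia tops, rose most. Strc (ENSMUSG00000033498, chromosome 2, 121363728 to 121387168 in mm10) was at 0.351, 0.6505 and 0.662 CPM at E16 and 14.3, 15.8 and 19.8 CPM at P0 (log2 fold change 4.89 with an SE of 0.34, adjusted p 1.23e-05), so the lowest P0 library was far above the highest E16 library. Xirp2, an actin-binding protein of stereocilia, was at 0.547, 0.935 and 0.662 CPM at E16 and 10.2, 7.13 and 7.97 CPM at P0 (log2 fold change 3.55 with an SE of 0.26, adjusted p 1.40e-05). Loxhd1, a stereocilium membrane protein needed for hearing, was at 3.79, 4.39 and 3.46 CPM at E16 and 24.2, 25.9 and 32.4 CPM at P0 (log2 fold change 2.83 with an SE of 0.21, adjusted p 1.41e-05).

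The motors and links of the bundle moved to different degrees. Myo15 (ENSMUSG00000042678, chromosome 11, 60469339 to 60528369), the myosin that carries elongation factors to stereocilia tips, was at 8.36, 9.51 and 6.58 CPM at E16 and 33.8, 49.97 and 57.1 CPM at P0 (log2 fold change 2.53 with an SE of 0.28, adjusted p 9.54e-05). Cdh23, the cadherin that forms the upper part of the tip link, was at 21.3, 29.9 and 20.8 CPM at E16 and 58.1, 94.2 and 110.5 CPM at P0 (log2 fold change 1.87 with an SE of 0.27, adjusted p 5.10e-04). In both genes the lowest P0 library was replicate 1, and it still lay above every E16 library. Pcdh15, the cadherin of the lower part of the same link, was at 66.1, 55.6 and 62.8 CPM at E16 and 67.5, 60.8 and 80.6 CPM at P0 (log2 fold change 0.18, adjusted p 0.337), and its groups overlapped. Myo7a, a myosin present in hair cells from early on, was at 47.4, 51.1 and 52.1 CPM at E16 and 71.4, 99.6 and 114 CPM at P0 (log2 fold change 0.92, adjusted p 0.00287). Its groups were separated, but the fold change stayed under 2.5.

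The channel subunits of mechanotransduction differed in time course. Tmc2, the subunit of immature hair cells, was at 0.312, 0.407 and 0.368 CPM at E16 and 3.88, 2.96 and 4.76 CPM at P0 (log2 fold change 3.40 with an SE of 0.26, adjusted p 1.47e-05). At P16 its libraries were at 0.355 to 0.381 CPM, a range that overlapped E16. Tmc1, the subunit of mature hair cells, was at 1.29, 1.34 and 1.91 CPM at E16 and 3.64, 2.59 and 3.04 CPM at P0 (log2 fold change 1.02, adjusted p 0.00436), separated between the ages but under the fold change threshold, and at 20.1 ± 3.55 CPM (SD, n = 3) at P16. Among the other bundle genes called higher, Grxcr2, Espnl and Myo3a had log2 fold changes of 3.15, 2.70 and 2.18. The called members ranged from 1.33 for Eps8l2 to 4.89 for Strc, and 32.2% of the exons of Eps8l2 are covered by a gene on the other strand.

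**Figure D2:**
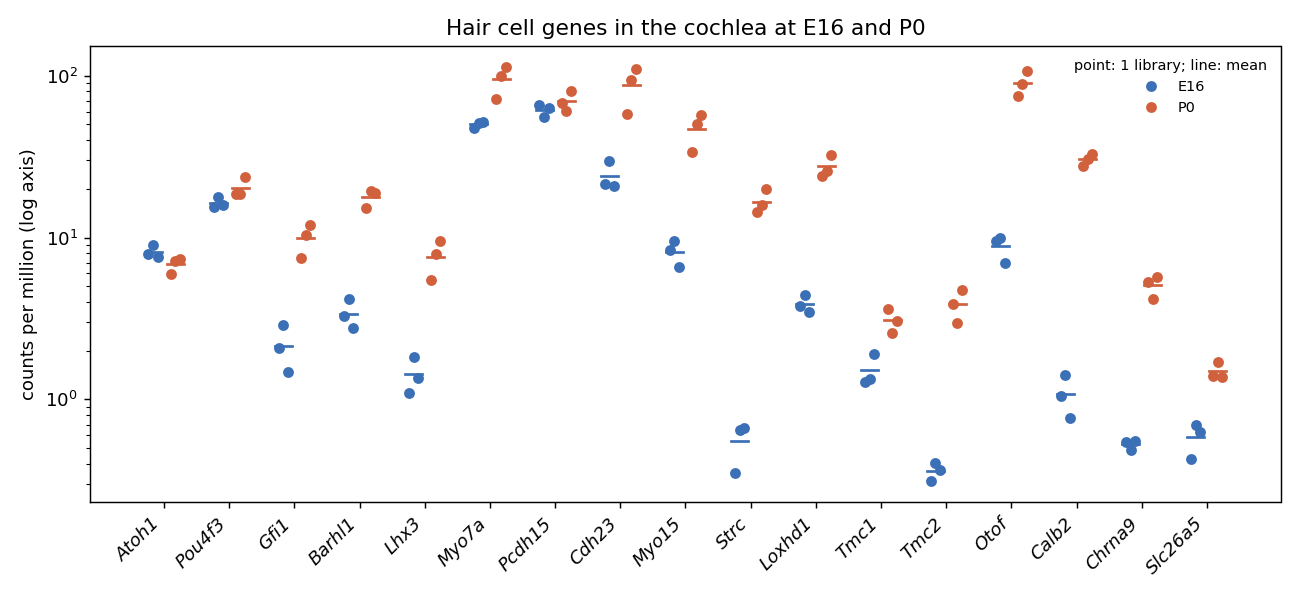
CPM on a log axis of 17 hair cell genes in each E16 and P0 library, with a line at the mean of each age. The P0 points of Strc, Tmc2, Otof and Calb2 sit far above the E16 points, whereas those of Pcdh15 overlap and those of Atoh1 lie slightly below.

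The transcription factors of hair cell fate gave 3 calls among 14 members (21.4%), all higher, and the median of the list was 0.33. Atoh1, which starts hair cell differentiation, was at 7.89, 8.94 and 7.61 CPM at E16 and 5.99, 7.17 and 7.32 CPM at P0 (log2 fold change -0.25, adjusted p 0.304). Its P0 libraries lay just below those at E16, and at P16 it was at 0.0367 ± 0.0397 CPM. Insm1, a factor of newly formed outer hair cells, was at 5.04, 6.46 and 5.74 CPM at E16 and 2.85, 4.14 and 4.35 CPM at P0 (log2 fold change -0.60, adjusted p 0.0334). Ikzf2, another member, was also lower, at 44.8, 35.003 and 41.1 CPM at E16 and 29.8, 23.4 and 26.4 CPM at P0 (log2 fold change -0.60, adjusted p 0.0146). All P0 libraries lay above all E16 libraries in 7 of the 14 members and below them in 4. The genes called higher were the 3 factors Gfi1, Barhl1 and Lhx3. Gfi1, needed for hair cell survival, was at 2.07, 2.89 and 1.47 CPM at E16 and 7.48, 10.3 and 11.9 CPM at P0 (log2 fold change 2.22 with an SE of 0.31, adjusted p 3.63e-04). Barhl1, needed for hair cell maintenance, was at 3.28, 4.15 and 2.76 CPM at E16 and 15.2, 19.5 and 18.97 CPM at P0 (log2 fold change 2.40 with an SE of 0.19, adjusted p 1.76e-05). Lhx3, a LIM homeobox factor, was at 1.09, 1.83 and 1.36 CPM at E16 and 5.496, 7.91 and 9.48 CPM at P0 (log2 fold change 2.42 with an SE of 0.30, adjusted p 2.00e-04). At P16 the means of Barhl1 and Lhx3 were 2.94 ± 0.428 CPM and 2.09 ± 0.699 CPM. After an adjustment for GC content over all cochlea libraries, described with the GC trend, these 3 genes kept their calls and the median of the list moved to 0.01.

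Genes of the hair cell synapse and of its channels were also higher at P0. Of 20 members, 8 were called higher (40%) and none lower, with a median of 0.99. Otof (ENSMUSG00000062372, chromosome 5, 30367062 to 30461932), which encodes otoferlin, the calcium sensor of vesicle release in inner hair cells, was at 9.49, 10.001 and 6.99 CPM at E16 and 74.9, 88.5 and 107 CPM at P0 (log2 fold change 3.35 with an SE of 0.19, adjusted p 4.83e-06). Calb2, the calcium buffer calretinin, was at 1.05, 1.42 and 0.773 CPM at E16 and 27.9, 30.6 and 32.8 CPM at P0 (log2 fold change 4.81 with an SE of 0.24, adjusted p 2.93e-06) and reached 1208 ± 287 CPM at P16. Calb2 is also a marker of spiral ganglion neurons, so its source among these cells was not tested. Kcna10, a potassium channel of hair cells, had 5 counts in the 3 E16 libraries together and was at 1.45, 1.48 and 1.89 CPM at P0 (log2 fold change 4.54 with an SE of 0.31, adjusted p 1.22e-05). The ratio of its summed counts was 23.6, with an exact 95% counting interval of 9.84 to 73.8.

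The subunits of the nicotinic receptor that takes efferent input rose side by side. Chrna9 was at 0.547, 0.488 and 0.552 CPM at E16 and 5.33, 4.18 and 5.67 CPM at P0 (log2 fold change 3.25 with an SE of 0.22, adjusted p 1.19e-05). Chrna10 was at 1.21, 0.6505 and 0.515 CPM at E16 and 6.49, 6.62 and 8.13 CPM at P0 (log2 fold change 3.16 with an SE of 0.27, adjusted p 2.32e-05), although a gene on the other strand covers 39.003% of its exons. Members known from later stages were low at both ages. Slc26a5, which encodes prestin, the motor protein of outer hair cells, was at 0.429, 0.691 and 0.625 CPM at E16 and 1.41, 1.700 and 1.38 CPM at P0 (log2 fold change 1.36 with an SE of 0.25, adjusted p 0.00177) and at 93.6 ± 18.1 CPM at P16. Ocm, the outer hair cell calcium buffer oncomodulin, was at 0.03904, 0.0407 and 0 CPM at E16 and 0, 0.03696 and 0.0675 CPM at P0, near or under the floor in each library, and at 79.5 ± 18.8 CPM at P16. Cacna1d, the presynaptic calcium channel, and Slc17a8, the vesicular glutamate transporter of inner hair cells, had log2 fold changes of 0.97 and 1.01. Their libraries were separated between the ages, with fold changes under 2.5.

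Supporting cell genes changed in both directions. Of 20 members, 5 were called higher (25%) and 1 lower, with a median of 0.69. Among them were the gap junction genes of the organ. Gjb2 (connexin 26; ENSMUSG00000046352, chromosome 14, 57098600 to 57104702) was at 121, 127 and 122 CPM at E16 and 286, 417 and 374 CPM at P0 (log2 fold change 1.54 with an SE of 0.15, adjusted p 4.75e-05). Gjb6 (connexin 30), its partner in the same channels, was at 17.4, 15.4 and 11.4 CPM at E16 and 60.5, 72.04 and 58.8 CPM at P0 (log2 fold change 2.12 with an SE of 0.15, adjusted p 1.40e-05). Gja1 (connexin 43; ENSMUSG00000050953, chromosome 10, 56377330 to 56402513) moved the other way, at 133, 105 and 133 CPM at E16 and 31.7, 26.8 and 25.1 CPM at P0 (log2 fold change -2.15 with an SE of 0.16, adjusted p 1.47e-05), with every P0 library well below the lowest E16 library. Connexin genes are also used by the lateral wall and by mesenchyme, and the share of each source was not tested.

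Otoa, which encodes otoancorin, the protein that anchors supporting cells to the overlying matrix, was at 99.1, 95.5 and 91.7 CPM at E16 and 324, 296 and 387 CPM at P0 (log2 fold change 1.81 with an SE of 0.12, adjusted p 8.98e-06). Lgr6, an R-spondin receptor of inner pillar cells, was at 16.2, 19.4 and 16.1 CPM at E16 and 58.1, 79.1 and 73.7 CPM at P0 (log2 fold change 2.03 with an SE of 0.16, adjusted p 1.62e-05) and at 18.3 ± 2.68 CPM at P16. Dkk3 completed the members called higher, with a log2 fold change of 1.53. The members given next showed no called change. Prox1, a homeobox factor of pillar and Deiters cells, was at 38.8, 34.5 and 37.7 CPM at E16 and 49.2, 53.3 and 61.5 CPM at P0 (log2 fold change 0.56, adjusted p 0.0025). Its groups were separated, with a fold change under 2.5. Fgfr3 and S100a1 had log2 fold changes of 0.51 and 0.88, and their P0 libraries also lay above all E16 libraries. Lgr5, the related receptor of cells that can still divide in the newborn organ, was at 63.9, 66.1 and 60.5 CPM at E16 and 52.9, 55.1 and 65.9 CPM at P0 (log2 fold change -0.13, adjusted p 0.393), and its groups overlapped. The cell cycle inhibitor Cdkn1b (p27Kip1), which holds supporting cells out of division, was at 128, 124 and 138 CPM at E16 and 154, 129 and 137 CPM at P0 (log2 fold change 0.11, adjusted p 0.445).

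Notch signalling, by which hair cells hold their neighbours in the supporting cell fate, gave no call among 20 members by edgeR or DESeq2, with a median of 0.38 and 8 members at an unadjusted edgeR p under 0.05. The receptor Notch1 was at 322, 415 and 346 CPM at E16 and 524, 840.1 and 878 CPM at P0 (log2 fold change 1.05, adjusted p 0.00345), separated but with a fold change under 2.5. The ligands Dll1, Jag1 and Jag2 had log2 fold changes of -0.16, 0.05 and 0.79. The effectors Hes1, Hes5 and Hey1 were at -0.64, 0.57 and -0.35 on the same log2 scale, and at P16 Hes5 had a mean of 0.144 ± 0.0999 CPM. Prosensory and otic patterning genes gave none among 21 by either tool, with 11 at an unadjusted p under 0.05. Fgf20, the growth factor of the early prosensory domain, had a log2 fold change of -0.98, and Fgf10 of -0.64. Their libraries were separated, and neither reached the fold change threshold. In these 2 lists the medians turned to -0.01 and -0.05 with the GC adjustment over all cochlea libraries. In the Notch list 1 gene was called higher without P0 replicate 1 or E16 replicate 2, and in the patterning list 1 without E16 replicate 2.

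Among the other signalling lists, single members passed. Shh, the ligand that spiral ganglion neurons send to the epithelium, fell from 0.8199, 1.098 and 1.54 CPM to 0.0413, 0.222 and 0.304 CPM (log2 fold change -2.53 with an SE of 0.48, adjusted p 0.00206). These levels rest on 1, 6 and 9 counts at P0, and a gene on the other strand covers 28.3% of its exons. It was the only one of 12 Hedgehog pathway members called, and its call was lost without E16 replicate 3. The targets Gli1 and Ptch1 had log2 fold changes of -0.43 and -0.20, and Hhip, another member, of 0.61. The median of the list was 0.46, with 9 members above 0 and 3 below. With the GC adjustment over all cochlea libraries this median was 0.16. Of 39 Wnt pathway members, 2 were called higher (5.13%, close to the 4.57% of all genes) and none lower. The median of the list was 0.44, with 30 members above 0 and 9 below, and 0.23 with the GC adjustment over all cochlea libraries. Axin2, a member not called, had a log2 fold change of 0.75 with separated libraries. Notum, a secreted Wnt inhibitor, was at 4.61, 5.204 and 4.01 CPM at E16 and 17.1, 19.3 and 20.1 CPM at P0 (log2 fold change 2.03 with an SE of 0.16, adjusted p 1.82e-05), and a gene on the other strand covers 38.1% of its exons. The receptor Fzd9 had a log2 fold change of 1.46 and was no longer called with the GC adjustment over all cochlea libraries. Without P0 replicate 1 or E16 replicate 2, 5 members were called higher. Planar cell polarity and basal body genes, which orient the bundles, gave no call among 24 by edgeR or DESeq2, with 14 at an unadjusted edgeR p under 0.05. Vangl2, a core polarity protein, was at 120.2, 135 and 126 CPM at E16 and 119, 138 and 141 CPM at P0 (log2 fold change 0.06, adjusted p 0.653).

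Fetal genes of the Lin28 and let-7 axis had a median log2 fold change of -0.46, and 9 of 11 were below 0. Hmga2, a chromatin protein of fetal progenitors, was at 73.3, 75.5 and 86.5 CPM at E16 and 20.2, 19.2 and 28.9 CPM at P0 (log2 fold change -1.78 with an SE of 0.18, adjusted p 5.34e-05), and at P16 it was at 0.576 ± 0.172 CPM. It was the only member called, and without P0 replicate 1 or E16 replicate 2 the number was 2. Lin28b, which blocks the maturation of let-7, was at 18.5, 14.6 and 19.1 CPM at E16 and 8.93, 6.76 and 6.68 CPM at P0 (log2 fold change -1.22, adjusted p 9.43e-04), and Igf2bp1 had a log2 fold change of -0.97. Both were separated between the ages with fold changes under 2.5.

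Genes of cell division were lower at P0. Of 34 mitosis genes, 15 were called lower (44.1%, against 3.4% of all genes), with a median of -1.61. The P0 libraries lay below all E16 libraries in 33 of the 34, the exception being Pttg1 (0.12). Kif2c, Bub1 and Ttk had the largest falls, and their RefSeq promoters (GRCm38.p6, 250 bases before to 50 after the start, 5′ to 3′ on the gene's strand) are shown because promoters of mitotic genes commonly carry CCAAT boxes and CHR elements. Capitals mark the CCAAT box, which reads ATTGG on the other strand, and the CHR element. The letters of the CHR element are TTTGAA, and on the other strand they are TTCAAA. The marked sites do not overlap.
The windows are chr4:117178723-117179022 (minus strand) for Kif2c, chr2:127831810-127832109 (minus strand) for Bub1 and chr9:83834439-83834738 (plus strand) for Ttk.
Kif2c: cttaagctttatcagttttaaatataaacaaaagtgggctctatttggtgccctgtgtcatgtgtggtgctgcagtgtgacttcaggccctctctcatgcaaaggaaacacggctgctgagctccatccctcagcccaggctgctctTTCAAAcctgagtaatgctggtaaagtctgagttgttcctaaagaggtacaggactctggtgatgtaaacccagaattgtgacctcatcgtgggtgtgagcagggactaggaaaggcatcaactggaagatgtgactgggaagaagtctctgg
Bub1: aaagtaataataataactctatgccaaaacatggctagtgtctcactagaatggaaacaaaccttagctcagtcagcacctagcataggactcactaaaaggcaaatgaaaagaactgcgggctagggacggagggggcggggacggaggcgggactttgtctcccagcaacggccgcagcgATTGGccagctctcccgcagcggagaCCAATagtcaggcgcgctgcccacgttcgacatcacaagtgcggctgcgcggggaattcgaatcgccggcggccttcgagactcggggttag
Ttk: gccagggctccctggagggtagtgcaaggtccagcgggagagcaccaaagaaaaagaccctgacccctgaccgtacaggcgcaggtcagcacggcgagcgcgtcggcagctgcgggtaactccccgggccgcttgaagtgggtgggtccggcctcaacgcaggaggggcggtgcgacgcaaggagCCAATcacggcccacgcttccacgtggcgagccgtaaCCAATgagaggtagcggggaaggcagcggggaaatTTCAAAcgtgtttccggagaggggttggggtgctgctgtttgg
The RefSeq start of Kif2c lies 3.87 kb inside the gene of the GENCODE M21 annotation, so its window is not that of the outermost start, whereas the start of Ttk coincides with that of its gene. In this window Kif2c held a CHR element, Bub1 a pair of CCAAT boxes, and Ttk held both kinds. Of the mitosis genes 28 matched a promoter in the RefSeq table, giving 30 promoters. A CCAAT box was found in 76.7% of these promoters, against 37.4% of all 32851 promoters of this length. A CHR element was found in 73.3% of them, against 17.9% of all. In the 26 promoters of S phase genes the shares were 61.5% for the CCAAT box and 15.4% for the CHR element. Such a match describes the sequence and is not evidence of binding.

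Kif2c, a kinesin that depolymerises microtubules at kinetochores, was at 37.2, 34.2 and 44.1 CPM at E16 and 8.39, 7.95 and 7.22 CPM at P0 (log2 fold change -2.30 with an SE of 0.40, adjusted p 0.0014). Bub1, a kinase of the spindle checkpoint, was at 36.2, 29.8 and 41.6 CPM at E16 and 8.31, 7.06 and 7.39 CPM at P0 (log2 fold change -2.24 with an SE of 0.49, adjusted p 0.00464). Ttk, another checkpoint kinase, was at 21.6, 19.1 and 25.3 CPM at E16 and 4.504, 4.55 and 4.89 CPM at P0 (log2 fold change -2.24 with an SE of 0.41, adjusted p 0.0017). Top2a, the topoisomerase that untangles chromosomes, was at 348, 281 and 399.5 CPM at E16 and 95.95, 73.5 and 83.2 CPM at P0 (log2 fold change -2.03 with an SE of 0.51, adjusted p 0.00982). In these 4 genes the highest P0 library was well below the lowest E16 library. Mki67, the proliferation marker Ki-67, was at 349, 323 and 384 CPM at E16 and 132, 165 and 171 CPM at P0. Its groups were also separated, but it was not called (log2 fold change -1.17, adjusted p 0.148). Ccnb1, the cyclin that drives entry into mitosis, was at 47.7, 41.5 and 52.3 CPM at E16 and 13.6, 12.3 and 13.8 CPM at P0 and likewise missed the threshold (log2 fold change -1.83, adjusted p 0.0177).

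The adjusted p-values of the cell cycle genes moved with P16 replicate 3. The summed level of the mitosis genes was 1887 to 2383 CPM at E16, 713 to 743 CPM at P0 and, at P16, 167, 221 and 803 CPM in replicates 1, 2 and 3. With the 6 libraries of E16 and P0 alone, 22 mitosis genes were called lower (4.07% of all genes were), and without P16 replicate 3 the number was again 22. Leaving out 1 library of E16 or P0 while P16 replicate 3 stayed in the fit gave 2 to 11, with the fewest without P0 replicate 3 (2), P0 replicate 2 (3) and E16 replicate 3 (4). In the fit of the 6 libraries Ccnb1 was called (log2 fold change -1.87, SE 0.12, adjusted p 1.04e-05), and Mki67 had a log2 fold change of -1.21 (SE 0.12, adjusted p 6.25e-05), still under the fold change threshold. In P16 replicate 3 the neutrophil list also summed to 472 CPM, against 54.6 CPM in the lowest P16 library, and the erythroid list to 1271 CPM, against 185 CPM. The part of blood cells in these cell cycle levels was not tested.

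**Figure D3:**
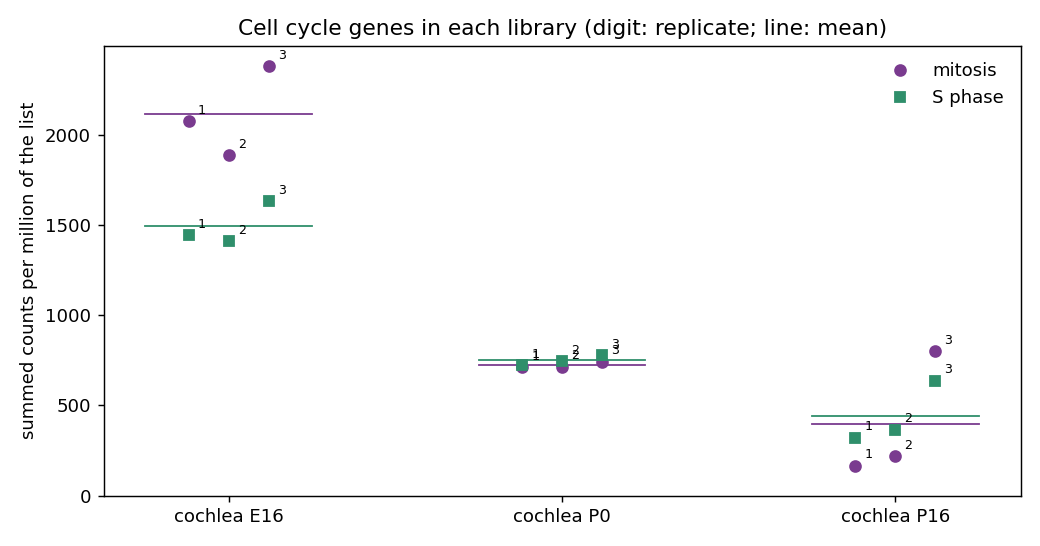
Summed CPM of the mitosis and S phase lists in each cochlea library, with the replicate number at each point and a line at the mean of each age. All P0 points lie below the E16 points, and P16 replicate 3 lies above the other P16 libraries, with 803 CPM for mitosis.

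DNA replication genes showed the same direction with smaller values. Of 30 S phase genes, 5 were called lower (16.7%), with a median of -1.004, and 26 had all P0 libraries below E16. Cdc6, which loads the replicative helicase, was at 17.3, 15.2 and 19.6 CPM at E16 and 4.504, 3.96 and 4.96 CPM at P0 (log2 fold change -1.96 with an SE of 0.41, adjusted p 0.00352). Mcm3, a subunit of that helicase, was at 73.9, 73.1 and 86.3 CPM at E16 and 26.9, 30.2 and 32.8 CPM at P0 (log2 fold change -1.37 with an SE of 0.29, adjusted p 0.00388), and Tyms, which makes thymidylate, was at 47.6, 45.6 and 58.6 CPM at E16 and 17.9, 17.3 and 18.8 CPM at P0 (log2 fold change -1.49 with an SE of 0.21, adjusted p 3.93e-04). Pcna, the sliding clamp, was at 76.8, 66.4 and 87.5 CPM at E16 and 38.5, 36.2 and 36.8 CPM at P0 (log2 fold change -1.05, adjusted p 2.62e-04), separated but under the fold change threshold. With the 6 libraries alone 11 S phase genes were called lower. The number was 1 without E16 replicate 3, 2 without P0 replicate 2 and 8 without E16 replicate 2. Of 53 replication histone genes, 1 was called lower, Hist1h2ah (-1.76), and the median was -0.23. Histone genes are near-identical copies that can share reads, so their single values are uncertain, and a gene on the other strand covers 35.6% of Hist1h2ah. With the GC adjustment over all cochlea libraries 6 were called lower (median -0.46). The call was lost without any 1 of the E16 or P0 libraries, and without P0 replicate 1 the median was 0.09. Among 22 cyclins, E2F factors and inhibitors, Cdkn1a (p21), an inhibitor induced on cell cycle exit, was called higher at 22.5, 25.5 and 21.96 CPM at E16 and 48.4, 64.2 and 62.9 CPM at P0 (log2 fold change 1.33 with an SE of 0.14, adjusted p 7.77e-05), and none was called lower. Its call was lost without P0 replicate 2 or 3 or E16 replicate 1 or 3, with the GC adjustments, and with the 6 libraries alone, where the log2 fold change was 1.29, just under the threshold.

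The matrix of the tectorial membrane was higher at P0 in part. Of 19 genes of the tectorial and otolithic matrix, 3 were called higher (15.8%) and none lower, with a median of 0.97. They were Tecta, Otoa and Col11a2. Otoa is also counted among the supporting cell genes, and Col11a2 among the collagens. Tecta (ENSMUSG00000037705, chromosome 9, 42329619 to 42399929), which encodes alpha-tectorin, the main glycoprotein of the membrane, was at 1529, 1481 and 1503 CPM at E16 and 3305, 3744 and 4553 CPM at P0 (log2 fold change 1.36 with an SE of 0.17, adjusted p 2.22e-04), and at P16 at 6.28 ± 1.66 CPM. Tectb, which encodes beta-tectorin, was at 181, 186 and 211 CPM at E16 and 361, 357 and 452 CPM at P0 (log2 fold change 1.02, adjusted p 1.43e-04), separated with a fold change under 2.5. Otog and Otogl, 2 related matrix proteins, had log2 fold changes of 0.87 and 0.02. Ceacam16, a tectorial protein of the hearing ear, was at 0.234, 0.366 and 0.331 CPM at E16 and 1.07, 0.333 and 0.304 CPM at P0 and at 1291 ± 543 CPM at P16. Oc90 and Otol1, proteins of the vestibular otoconia, had log2 fold changes of -0.30 and -0.42, and their P0 libraries lay below those at E16. Oc90 was at 1674, 1819 and 1832 CPM at E16, above Tecta at that age, and 1350, 1410 and 1565 CPM at P0. At P16 it was at 26.2 ± 8.41 CPM. Otol1 was at 34.1 ± 1.38 CPM at E16 and 25.4 ± 1.59 CPM at P0. The tissue source of these transcripts was not tested. With the GC adjustment over all cochlea libraries Tecta had a log2 fold change of 1.19 and was no longer called, and its call was also lost without P0 replicate 3.

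Collagens had a median of 0.51 over 42 members, of which 4 were called higher (9.52%) and none lower. Col11a2 (ENSMUSG00000024330, chromosome 17, 34039437 to 34066685), a chain of the fibrils of the tectorial membrane and of cartilage, was at 291, 383 and 306 CPM at E16 and 1600.4, 1847 and 1889.9 CPM at P0 (log2 fold change 2.44 with an SE of 0.14, adjusted p 4.73e-06). Col4a3 and Col4a4, which pair in basement membranes, were at 0.429, 0.854 and 0.478 CPM at E16 and 2.11, 2.55 and 1.89 CPM at P0 and at 4.53, 4.47 and 3.72 CPM at E16 and 14.2, 17.7 and 14.95 CPM at P0 (log2 fold change 1.89 with an SE of 0.25, adjusted p 2.62e-04 and log2 fold change 1.88 with an SE of 0.13, adjusted p 1.32e-05, in that order). Their means at P16 were 111 ± 13.3 CPM and 132 ± 11.2 CPM. Col28a1 was the remaining call (1.46). Col2a1, given above, had a log2 fold change of 1.23, and Col9a1 was at 714, 737 and 713 CPM at E16 and 1863, 1375 and 1566 CPM at P0 (log2 fold change 1.15, adjusted p 0.00162). In both, the libraries were separated and the fold change stayed under 2.5. Col1a1, the collagen of bone and fibrous tissue, was at 208, 427 and 196 CPM at E16 and 200, 482 and 249.9 CPM at P0 (log2 fold change 0.17, adjusted p 0.733), high in replicate 2 of both ages. With the GC adjustment the median of the collagens moved to 0.13 and 5 members were called higher.

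**Figure D4:**
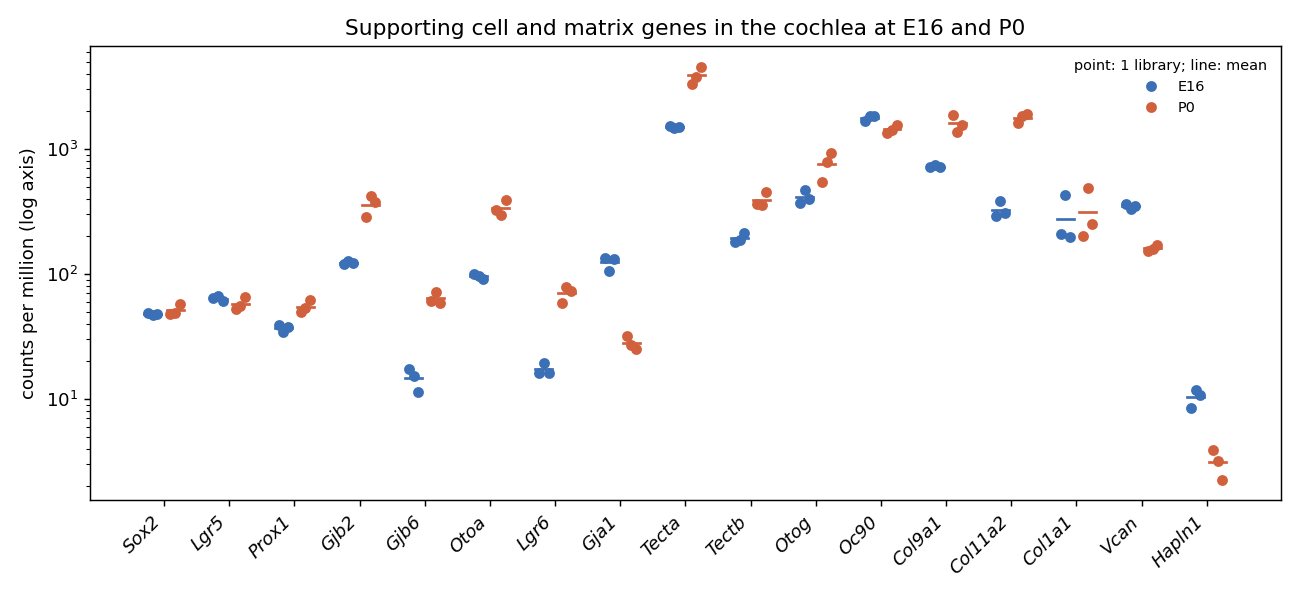
CPM on a log axis of 17 supporting cell and matrix genes in each E16 and P0 library, with a line at the mean of each age. Gjb2, Gjb6, Otoa, Lgr6, Tecta and Col11a2 are higher at P0 in all libraries, Gja1, Vcan and Hapln1 are lower, and Sox2, Lgr5 and Col1a1 overlap.

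The remaining matrix lists gave few calls. None of 20 laminin and basement membrane genes was called by edgeR or DESeq2, although 16 had an unadjusted edgeR p under 0.05. Their median log2 fold change was 0.62, with 16 members above 0 and 4 below, and 0.38 with the GC adjustment over all cochlea libraries. Of 27 proteoglycan genes, Bcan and Prelp were called higher (7.41%, against 4.57% of all genes) and Hapln1 lower (3.70%, against 3.4%). The median of this list was 0.41, with 19 members above 0 and 8 below. Bcan (brevican), a hyaluronan-binding proteoglycan of perineuronal matrix, was at 2.11, 2.76 and 2.35 CPM at E16 and 22.6, 33.3 and 27.3 CPM at P0 (log2 fold change 3.53 with an SE of 0.19, adjusted p 3.80e-06). Hapln1, which links such proteoglycans to hyaluronan, was at 8.51, 11.8 and 10.7 CPM at E16 and 3.88, 3.18 and 2.26 CPM at P0 (log2 fold change -1.74 with an SE of 0.20, adjusted p 1.13e-04). Vcan (versican) was at 360.01, 330.1 and 353 CPM at E16 and 154, 157 and 169.6 CPM at P0 (log2 fold change -1.12, adjusted p 3.47e-05), all P0 libraries below E16 with a fold change under 2.5, and at 5.14 ± 0.5596 CPM at P16. Has2, which makes hyaluronan, fell as well, at 5.54, 5.204 and 6.62 CPM at E16 and 2.11, 1.22 and 0.743 CPM at P0 (log2 fold change -2.11 with an SE of 0.37, adjusted p 0.00143). Adamts1, a protease that cuts such proteoglycans, was the other call among 2 matrix enzymes lower at P0, at 108, 106 and 104 CPM at E16 and 36.8, 47.02 and 41.4 CPM at P0 (log2 fold change -1.35 with an SE of 0.12, adjusted p 2.53e-05). Loxl1, a collagen and elastin cross-linking enzyme, had a log2 fold change of 1.55 and was the enzyme called higher. Of the 36 matrix enzymes, 2.78% were thus called higher and 5.56% lower, near the shares of all genes. Of 28 glycoprotein and elastic fibre genes only Tnxb was called (1.86), a share of 3.57% higher. DESeq2 called 2, as did edgeR with the 6 libraries alone and without P0 replicate 1, and without E16 replicate 2 the number was 4. With the GC adjustment over all cochlea libraries Tnxb, Loxl1 and Prelp were not called, and the median of the matrix enzymes turned from 0.08 to -0.24. Loxl1 also lost its call without P0 replicate 2, P0 replicate 3, E16 replicate 1 or E16 replicate 3. The laminin list gained 1 call without P0 replicate 1 or E16 replicate 2, and the proteoglycans had 1 to 3 members higher when 1 library was left out, 1 without E16 replicate 1 or 3.

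Ion transport genes of the stria vascularis, the lateral wall tissue that secretes potassium into the endolymph, were higher at P0. Of 19 members, 8 were called higher (42.1%) and none lower, with a median of 1.12. Gjb2 and Gjb6 belong to this list too. Kcnq1 and Kcne1, the channel and its accessory subunit through which marginal cells release potassium, were at 9.53, 12.4 and 8.57 CPM at E16 and 37.2, 60.3 and 50.7 CPM at P0 and at 8.82, 11.5 and 7.43 CPM at E16 and 41.2, 68.3 and 50.9 CPM at P0 (log2 fold change 2.28, adjusted p 3.93e-04 and log2 fold change 2.53, adjusted p 9.65e-04). Bsnd, the accessory subunit of chloride channels in the same cells, was at 3.51, 3.62 and 2.35 CPM at E16 and 10.8, 14.3 and 12.7 CPM at P0 (log2 fold change 1.99 with an SE of 0.42, adjusted p 0.00375). Atp6v0a4, a proton pump subunit, was at 0.664, 0.529 and 0.1104 CPM at E16 and 7.07, 7.87 and 7.12 CPM at P0 (log2 fold change 4.09 with an SE of 0.62, adjusted p 6.23e-04). Kcnj10, the channel that generates the endocochlear potential, was at 8.24, 8.21 and 7.28 CPM at E16 and 13.7, 17.003 and 18.7 CPM at P0 (log2 fold change 1.06, adjusted p 3.12e-04), and at P16 at 212 ± 25.997 CPM. Slc26a4 (pendrin), an anion exchanger of the lateral wall, was at 24.2, 25.9 and 22.3 CPM at E16 and 25.5, 26.6 and 22.9 CPM at P0 (log2 fold change 0.05, adjusted p 0.822), with overlapping groups. None of 12 melanocyte markers, which would mark the intermediate cells of the stria, was called by edgeR or DESeq2. An unadjusted edgeR p under 0.05 was reached by 4 of them, and their sum was 369.8 to 427 CPM at E16 and 408 to 474 CPM at P0. Their median log2 fold change was 0.66, and 9 of the 12 were above 0. All P0 libraries lay above all E16 libraries in 8 of them and below in 1. Whether more strial tissue was included in the P0 dissections was not tested.

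Of 19 junction genes, 4 were called higher and Gja1 lower. Besides the connexins, Cldn14, a claudin of the hair cell surface, was at 1.601, 1.79 and 1.54 CPM at E16 and 5.87, 6.76 and 7.53 CPM at P0 (log2 fold change 2.03 with an SE of 0.16, adjusted p 1.85e-05), and Cldn11, the claudin of strial basal cells, was at 44.8, 53.5 and 46.6 CPM at E16 and 123, 194 and 135 CPM at P0 (log2 fold change 1.64 with an SE of 0.17, adjusted p 6.48e-05). Marveld2 (tricellulin) had a log2 fold change of 0.13 and Cldn9 of 0.21, neither called.

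Genes that respond to glucocorticoids, the hormones that rise before birth, were among those higher at P0. Of 16 such genes, 7 were called higher (43.8%) and none lower, with a median of 0.59. Zbtb16, a zinc finger repressor, was at 11.8, 13.8 and 7.76 CPM at E16 and 67.9, 83.3 and 95.6 CPM at P0 (log2 fold change 2.89 with an SE of 0.21, adjusted p 1.40e-05). Klf9, which responds to thyroid hormone as well, was at 5.74, 5.85 and 5.63 CPM at E16 and 29.2, 40.95 and 42.3 CPM at P0 (log2 fold change 2.71 with an SE of 0.15, adjusted p 4.73e-06). Mt1, a metallothionein, was at 1.25, 1.54 and 0.883 CPM at E16 and 4.26, 11.4 and 7.93 CPM at P0 (log2 fold change 2.69 with an SE of 0.38, adjusted p 4.00e-04), and the clock gene Per1 was at 35.6, 46.1 and 34.9 CPM at E16 and 103, 176 and 202 CPM at P0 (log2 fold change 2.05 with an SE of 0.25, adjusted p 1.70e-04). Fkbp5 and Tsc22d3, both widely used as readouts of the receptor, were at 46.9, 44.8 and 50.7 CPM at E16 and 38.8, 51.9 and 49.4 CPM at P0 and at 60.8, 53.3 and 59.3 CPM at E16 and 65.5, 61.7 and 60.5 CPM at P0, with log2 fold changes of -0.02 and 0.11. The list was thus split between members with large rises and members that were not called. With the 6 libraries alone 5 were called higher.

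In the thyroid hormone axis, 3 of 10 members were called higher. They were Klf9, Dio2 and Slco1c1. Dio2, the deiodinase that activates the hormone in the cochlea, was at 0.547, 0.6505 and 0.589 CPM at E16 and 2.81, 2.51 and 1.38 CPM at P0 (log2 fold change 1.89 with an SE of 0.32, adjusted p 0.00107) and at 45.7 ± 10.98 CPM at P16. Slco1c1, a transporter of the hormone, was at 2.11, 2.56 and 2.72 CPM at E16 and 7.69, 5.84 and 6.31 CPM at P0 (log2 fold change 1.42 with an SE of 0.16, adjusted p 9.95e-05). The receptors Thra and Thrb had log2 fold changes of 0.54 and 0.61. Of 15 immediate early genes, which respond to stimulation and handling, 3 were called higher, Fos (1.36), Klf4 (1.46) and Ier3 (1.45), whereas Jun and Egr1 had overlapping groups. None of these 3 calls remained with the GC adjustment, and only 1 immediate early gene was called higher without P0 replicate 2 or 3.

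Markers of other cells in the dissections moved beside these lists. Of 20 markers of spiral ganglion neurons, 4 were called higher (20%), Calb2 among them, and 2 lower (10%). Their median log2 fold change was -0.35, with 14 markers below 0 and 6 above, and -0.63 with the GC adjustment over all cochlea libraries. The sum of these markers was 1065 to 1283 CPM at E16 and 703 to 964 CPM at P0. Slc17a7, the vesicular glutamate transporter of these neurons, rose, at 2.304, 2.24 and 2.13 CPM at E16 and 6.74, 9.06 and 10.1 CPM at P0 (log2 fold change 1.96 with an SE of 0.17, adjusted p 2.43e-05), and Nefh, a late neurofilament, had a log2 fold change of 1.80. Pou4f1, an early neuronal factor, fell, at 22.1, 20.7 and 24.8 CPM at E16 and 6.69, 8.76 and 8.03 CPM at P0 (log2 fold change -1.52 with an SE of 0.16, adjusted p 7.06e-05), and Elavl4, an RNA-binding protein of young neurons, fell by 1.72 on the log2 scale. Of 19 Schwann cell and satellite glia markers, 5 were higher, among them Mal, a membrane protein of myelin (2.47 on the log2 scale). With the GC adjustment over all cochlea libraries 3 were called higher, Mal among them. Fabp7, a marker of immature glia, fell, at 197, 126 and 204 CPM at E16 and 65.95, 33.5 and 39.3 CPM at P0 (log2 fold change -1.93 with an SE of 0.34, adjusted p 0.00139). The sum of the glial list was 862 to 908 CPM at E16 and 749.5 to 952 CPM at P0.

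Cartilage and mesenchyme were present at both ages. The cartilage markers summed to 4542 to 5434 CPM at E16 and 9316 to 12093 CPM at P0, mostly through Col2a1. Of 13 tested, Matn1 (matrilin 1) and Cytl1 were higher, with Matn1 at 14.7, 21.5 and 15.9 CPM at E16 and 74.4, 68.97 and 74.6 CPM at P0 (log2 fold change 2.06 with an SE of 0.15, adjusted p 1.47e-05), and Hapln1 was lower. Without P0 replicate 1, 4 were higher. Acan (aggrecan) was at 7.81, 20.3 and 11.6 CPM at E16 and 14.01, 25.8 and 12.99 CPM at P0 (log2 fold change 0.41, adjusted p 0.36). The collagens and the tectorial list share members with cartilage, and the part of capsule cartilage in their values was not tested. Of 16 mesenchyme and fibrocyte markers, Car3 was higher, at 65.01, 60.9 and 61.8 CPM at E16 and 359.9, 467 and 300.2 CPM at P0 (log2 fold change 2.59 with an SE of 0.19, adjusted p 1.47e-05), and Meox2, a homeobox factor of mesenchyme, was lower, at 14.2, 12.7 and 13.8 CPM at E16 and 3.099, 2.51 and 3.14 CPM at P0 (log2 fold change -2.21 with an SE of 0.19, adjusted p 2.58e-05). Coch and Otos, products of mature fibrocytes, were not called, and at P16 their means were 7073 ± 916 CPM and 800.4 ± 629 CPM. Skeletal muscle genes gave no call among 12 by edgeR or DESeq2 (3 at an unadjusted edgeR p under 0.05) but varied between replicates, with Acta1, muscle actin, at 2.23, 4.23 and 1.104 CPM at E16 and 3.39, 21.5 and 6.41 CPM at P0, highest in replicate 2 of both ages.

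Among blood genes the embryonic globins fell. Hbb-y, an embryonic beta-like globin, had 237 counts in the E16 libraries together and 2 at P0, a 132-fold lower level with an exact 95% counting interval of 36.1 to 1095 (adjusted p 3.91e-05). Hba-x, its alpha-like counterpart, had 113 counts at E16 and 6 at P0, 20.9-fold lower (9.33 to 58.3, adjusted p 0.00137). The adult globin Hba-a1 was at 50.99, 134 and 63.6 CPM at E16 and 54.5, 144 and 71.4 CPM at P0 (log2 fold change 0.12, adjusted p 0.917), highest in replicate 2 of both ages, although reads may be split with the near-identical Hba-a2 (0.86). The adult beta globins Hbb-bs and Hbb-bt had log2 fold changes of -0.58 (adjusted p 0.359) and -1.26 (adjusted p 0.0591), and the P0 libraries of Hbb-bt lay below all E16 libraries. The erythroid list summed to 422 to 628 CPM at E16 and 304 to 555 CPM at P0, overlapping ranges. Macrophage markers summed to 229 to 239 and 225 to 311 CPM, with Lyve1 (1.42) and Cd163 (1.33) higher among 16. No macrophage marker was called higher without P0 replicate 2, and 1 was with the 6 libraries alone or without P0 replicate 1 or E16 replicate 2 or 3. Neutrophil markers summed to 7.85 to 9.88 and 4.49 to 5.25 CPM, endothelial markers to 489 to 517 and 373 to 491 CPM and bone markers to 119 to 129 and 118 to 172 CPM. These lists gave no call by edgeR or DESeq2, and an unadjusted edgeR p under 0.05 was reached by 0 neutrophil, 5 endothelial and 1 bone markers. With the 6 libraries alone 2 neutrophil and 5 erythroid markers were called lower, in place of 0 and 2, and without P16 replicate 3 the numbers were 2 and 3. No tested marker in these lists of other cell types was at 0 in all 6 libraries. Genes at 0 in all 9 cochlea libraries were left out before the test, and some listed markers were not tested. This count therefore cannot show that a cell type was present.

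Over all genes with a mean of at least 20 CPM at either age, the largest rise was that of Tigit, an inhibitory receptor known from T cells and natural killer cells. Tigit (ENSMUSG00000071552, chromosome 16, 43648867 to 43664146) was at 0.3904, 0.285 and 0.258 CPM at E16 and 19.4, 25.5 and 22.9 CPM at P0 (log2 fold change 6.16 with an SE of 0.24, adjusted p 5.40e-07) and at P16 at 0.607 ± 0.158 CPM. Pkp1, a desmosomal plakophilin, followed at 0.0781, 0.935 and 0.294 CPM at E16 and 18.9, 35.2 and 20.1 CPM at P0 (log2 fold change 5.84 with an SE of 0.55, adjusted p 4.09e-05). Ppp1r1b (DARPP-32) was at 0.429, 0.447 and 0.331 CPM at E16 and 19.5, 32.4 and 16.3 CPM at P0 (log2 fold change 5.81 with an SE of 0.31, adjusted p 3.80e-06), and a gene on the other strand covers 15.7% of its exons. Fcrlb, an Fc receptor-like protein, was at 0.351, 0.813 and 0.625 CPM at E16 and 21.9, 24.2 and 27.5 CPM at P0 (log2 fold change 5.36 with an SE of 0.29, adjusted p 3.80e-06) and at 125 ± 33.2 CPM at P16. Scg2, a granin of secretory vesicles, was at 3.79, 3.37 and 3.68 CPM at E16 and 76.2, 76.96 and 56.97 CPM at P0 (log2 fold change 4.27 with an SE of 0.34, adjusted p 1.85e-05) and at 1.37 ± 1.03 CPM at P16. 4932411E22Rik, Bcan, Cytl1, Calb2 and Otof completed the 10 largest rises, with log2 fold changes of 3.99, 3.53, 3.37, 4.81 and 3.35. Tigit, Scg2 and Cytl1 were low again at P16, while Calb2, Fcrlb, Bcan and Otof were higher at P16 than at P0 in their means.

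Under the same limit of 20 CPM the largest fall was that of Zfp60, a zinc finger gene. Zfp60 (ENSMUSG00000037640, chromosome 7, 27731389 to 27753702) was at 85.2, 70.3 and 88.7 CPM at E16 and 15.1, 10.6 and 13.3 CPM at P0 (log2 fold change -2.64 with an SE of 0.17, adjusted p 8.20e-06) and at 42.5 ± 6.29 CPM at P16. Adarb2, an RNA-editing family member, was at 20.1, 18.8 and 23.8 CPM at E16 and 3.06, 3.96 and 3.34 CPM at P0 (log2 fold change -2.60 with an SE of 0.19, adjusted p 1.47e-05). Fam111a, a protease that acts at replication forks, was at 31, 21.8 and 35.1 CPM at E16 and 4.88, 4.58 and 5.13 CPM at P0 (log2 fold change -2.59 with an SE of 0.35, adjusted p 2.98e-04), and a gene on the other strand covers 14.4% of its exons. Rad54b, a DNA repair helicase, was at 21.3, 18.6 and 21.3 CPM at E16 and 4.21, 3.92 and 3.95 CPM at P0 (log2 fold change -2.34 with an SE of 0.22, adjusted p 4.11e-05), and another gene of the same strand covers 35.8% of its exons. Fam84a was at 39.3, 39.5 and 43.5 CPM at E16 and 8.099, 8.797 and 9.28 CPM at P0 (log2 fold change -2.22 with an SE of 0.12, adjusted p 3.80e-06). C430049B03Rik, Thap2, Kif2c, Bub1 and Ttk completed the 10 largest falls, with log2 fold changes of -2.30, -2.21, -2.30, -2.24 and -2.24. Each of these falls was smaller on the log2 scale than each of the 10 rises.

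The calls followed the GC content of the genes, which also separated replicate libraries. Across 18357 genes with a mean over 1 CPM, the Spearman correlation of a library's deviation from the mean of its age with exon GC content was -0.699, 0.653 and 0.403 in P0 replicates 1, 2 and 3 and -0.619, 0.669 and -0.346 in E16 replicates 1, 2 and 3. When these genes were split by GC content into 5 groups of equal size, P0 replicate 1 in the lowest group lay 0.21 above the mean of its age on the log2 scale, and in the highest group it lay at -0.24. The difference between the ages had a correlation of 0.395 with GC content over the same genes. In the lowest group 59 genes were called higher and 269 lower, and in the highest group 242 higher and 24 lower. Since genes are no independent replicates, such correlations only describe these libraries.

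**Figure D5:**
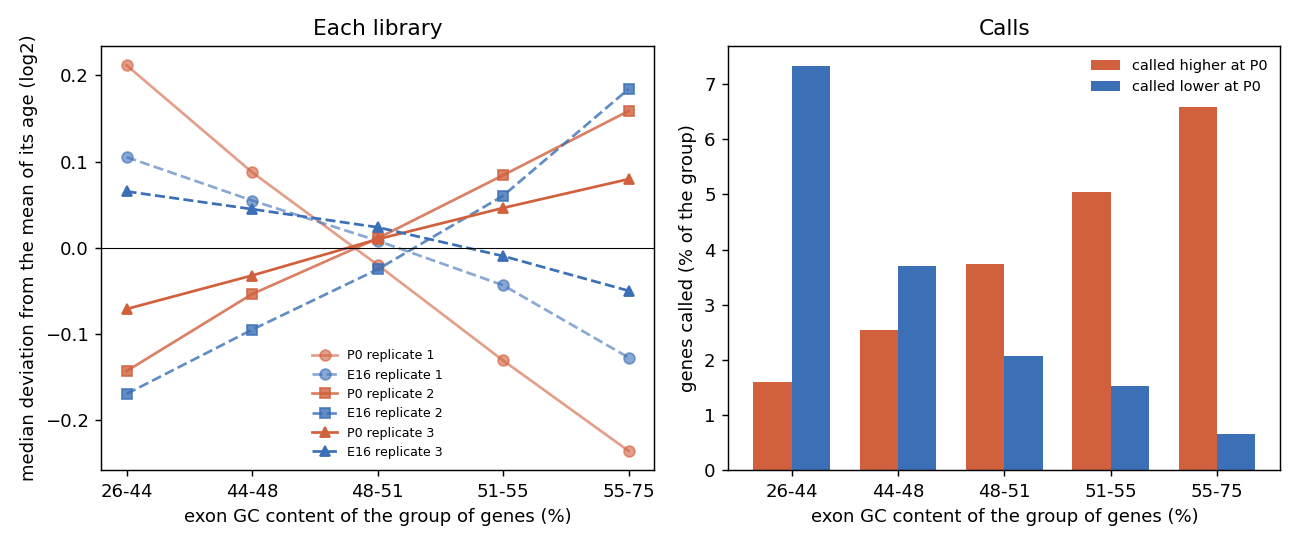
Left, median deviation of each library from the mean of its age (log2) in 5 equal groups of genes ordered by exon GC content (%). Right, genes called higher and lower at P0 (% of each group), from 1.61% higher and 7.32% lower in the lowest group to 6.59% and 0.654% in the highest.

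A GC trend removed within each age hardly alters the difference between the ages, by design. Removing the trend in this way left 988 of the 998 higher and 736 of the 743 lower genes called. Removing it over all cochlea libraries, which also takes out any difference between ages that follows GC content, gave 865 higher (3.96%) and 656 lower (3.01%), and 754 and 529 of the same genes were kept. Under that adjustment the hair bundle list had 16 members higher and a median of 0.999, the mitosis list had 14 lower and a median of -1.47, and the strial list kept 8 higher. Supporting cell genes stayed at 5 higher and 1 lower. Without P0 replicate 1, 1081 genes were higher and 828 lower, and the tectorial list had 6 members higher in place of 3. Whether the GC trend between the ages is technical cannot be told apart from a change in the genes expressed.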

How the data were processed

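RNA was depleted of rRNA and sequenced from directional NEBNext libraries. The authors aligned reads with STAR 2.5.3a to mm10, counted them on GENCODE genes and deposited raw counts per gene. HTSeq and DESeq2 are named in the submitters' processing notes, and the use of strand in counting and the annotation version are not given in the sources used here. The deposited table holds 22734 genes, of which 905 were at 0 in all 9 cochlea libraries and were left out. Every other gene reached at least 21 counts in some cochlea library.

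Counts of the 9 cochlea libraries (3 ages, 3 replicates each) were fitted with edgeR 4.0.16 in R 4.3.3 (TMM factors, quasi-likelihood F test, no filter, no block), and P0 was contrasted with E16. Calls needed a Benjamini-Hochberg adjusted p under 0.01, a fold change over 2.5 and separation of all libraries, the study's thresholds. Fold changes are log2 with standard errors (SE). Levels are CPM. No 2 replicates agreed within counting noise (chi-square of 4.82 to 42.2 per degree of freedom). Same-numbered E16 and P0 libraries had deviations correlated at 0.524, 0.568 and -0.146. Replicates 1 and 2 each had a GC trend of the same sign at both ages. The labels do not say what same-numbered libraries share, so the main fit took no pairs, and fits with a replicate block are given below. A factor shared by same-numbered libraries was not tested.

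Positions, exon GC content and overlaps came from GENCODE M21 (mm10) for 21739 of the 21829 genes tested, and promoters from RefSeq (GRCm38.p6). Named genes are the 10 largest called changes in each direction with a mean of at least 20 CPM, the core genes of each list, and up to 3 called members of each list and direction, with a few further members named for the ends of a range. The lists and members were chosen with earlier results of these data known. Alternatives were DESeq2 1.42.0, other size factors, filters, thresholds, library sets, GC offsets (spline of 5 degrees of freedom) and a replicate block. The fit was checked on simulated counts with known changes. The simulation held no GC trend and no library that stood apart as P16 replicate 3 does, so the check does not bear on these.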

Additional observations from a re-analysis of the deposited data

How the results depend on the processing

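The counts of genes higher and lower at P0 stayed within 1.5 times of 998 and 743 under DESeq2, other size factors, expression filtering, the library sets, the GC offsets and the replicate block. They moved with the thresholds, to 155 and 52 when glmTreat tested them against 2.5-fold and to 1950 and 1533 at an adjusted p under 0.05 and a fold change over 2. With glmTreat the hair bundle list had 10 members higher, supporting cells 2 and collagens 1, and the S phase and mitosis lists 0 lower. At the looser thresholds 15 S phase genes were lower and 11 collagens higher. S phase genes called lower were also 8 with upper-quartile factors, 11 with the 6 libraries alone, 11 with P16 replicate 3 left out and 8 with the 6 libraries and GC offsets over them, the last 2 settings chosen after seeing the data.

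Leaving out each E16 or P0 library gave 685 to 1081 genes higher and 516 to 828 lower. The mitosis list had 2 to 11 members lower, the S phase list 1 to 8, collagens 4 to 7 higher, hair bundle genes 16 to 19 and supporting cells 5. Mitosis calls were fewest without P0 replicate 3 (2), P0 replicate 2 (3), E16 replicate 3 (4), E16 replicate 1 (6) and P0 replicate 1 (8), and S phase calls without E16 replicate 3 (1) and P0 replicate 2 (2). S phase and collagen calls were most numerous without E16 replicate 2 (8 and 7). All these fits hold P16 replicate 3.

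With the replicate block 998 genes were higher and 776 lower, and with the block and GC offsets within groups 1056 and 791. No called change of a named gene reversed its sign under any alternative. Of the 20 largest changes, 16 kept their calls in all 19 alternatives. Bub1 lost its call in 6, Ttk in 3, and Fam111a and Kif2c under glmTreat. The cause of these shifts was not tested.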

Other observations

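Some gene families that no list covers also moved. They were chosen after their values were seen, by symbol or biotype, and no test was run on them. Of 351 zinc finger genes with a Zfp symbol, 38 were called lower at P0 (10.8%, against 3.4% of all genes) and 2 higher, with a median log2 fold change of -0.39. All 3 P0 libraries lay below all E16 libraries in 188 of them. Their median exon GC content was 45.98%. With GC offsets over all cochlea libraries 24 were lower and 2 higher, with a median of -0.28.

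Genes of biotype TEC, single-exon models that still await experimental support, gave 34 higher (2.22%) and 135 lower (8.82%) of 1531, at a median GC content of 41.7%. Here the same GC offsets changed the balance, to 71 higher and 79 lower. Leaving out 1 E16 or P0 library gave 17 (without E16 replicate 3) to 34 higher and 89 (without P0 replicate 2) to 167 lower (without P0 replicate 1). Solute carriers leaned the other way, with 23 higher (7.26%, against 4.57% of all genes) and 6 lower (1.89%, against 3.4%) of 317. Their median log2 fold change was 0.27. With GC offsets over all cochlea libraries 22 were higher and 4 lower, with a median of 0.10. Leaving out 1 E16 or P0 library gave 16 (without P0 replicate 2) to 29 higher (without P0 replicate 1). None of 75 cytosolic ribosomal protein genes was called by edgeR or DESeq2, with 35 at an unadjusted edgeR p under 0.05, a median of 0.23 and P0 above E16 in all libraries for 41 of them. Without P0 replicate 1, 4 of them were called higher by edgeR, against 2 without E16 replicate 2, and the 6 libraries alone gave 1.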
